A study of Plutella xylostella with 12 samples.

Results

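The 100 most abundant nuclear transcripts of fourth-instar diamondback moth larvae (Plutella xylostella, a moth whose larvae feed on cabbage) are described here across sex and rearing temperature. They were taken from 18895 features with locus identifiers in a table of 19364, ranked by the mean of the deposited TPM over all 12 libraries. TPM is a transcript abundance that divides exon reads by exon length and scales each library to the same total. Of the locus names, 6 were set aside by the rule before ranking: LOC105388119, LOC105388120, LOC105388121, LOC105381553, LOC105382338 and LOC105381387. Of these, 4 would have stood within the first 100. The 100 chosen features lie on 90 of 1428 scaffolds.

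Each library is a pool of 8 whole larvae of a laboratory population kept on cabbage, collected in the middle of the fourth instar. Every group was reared at 25 °C into the third instar, after which larvae were held at 10 °C or left at 25 °C. The groups are females at 10 °C (replicates 1, 2 and 3), females at 25 °C (replicates 1, 2 and 4), males at 10 °C and males at 25 °C (replicates 1, 2 and 3 each). The question asked by the design is how the transcriptome responds to cold in each sex. Libraries held between 10183278 and 30106219 gene reads. In whole-body RNA, fewer cells of a type and less RNA per cell cannot be told apart.

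At 10 °C, female replicates 2 and 3 and male replicate 3 went against their sex labels. The median level of 395 genes that were at least 16-fold higher in males than in females at 25 °C, as a percent of the male 25 °C mean, reached 8.86 and 33.6 in replicates 2 and 3 of the 10 °C females, where replicate 1 had 0. In the 10 °C males it was 34.8 and 55.5 in replicates 1 and 2 but 0.0969 in replicate 3. The 25 °C females had at most 2.15 and the 25 °C males at least 98.2, which the choice of these genes fixes and which does not check the 25 °C labels. Sex is given here as labelled, and counts of called members are also given without the 10 °C libraries numbered 3.

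The most abundant messenger RNAs of a feeding larva generally come from a few large tissues. The fat body makes storage proteins such as arylphorins, which are secreted into the blood and used up at metamorphosis. The midgut makes digestive proteases such as trypsins. All cells make ribosomal proteins, actin, ubiquitin and the constitutive chaperone of the Hsp70 family. Ribosomal protein messengers in particular are short and are made in large amounts. The deposited tables hold no product names, so most members are given here by identifier alone.

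Mean levels spanned 9.32-fold, with a median of 3679 TPM. LOC105398139 was first at 18586 TPM and LOC105380502 was number 100 at 1995 TPM. The decline was steep only at the top: the first 10 members held 21.7% of the members' summed TPM, the first 20 held 37.2% and the first 50 held 68.0%. Just inside the limit stood LOC105392199 (2023 TPM), LOC105388192 (2003 TPM) and LOC105380502. Just outside stood LOC105388211 (1969 TPM), LOC105394391 (1959 TPM) and LOC105394363 (1935 TPM). These levels chose the members and are a description.

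**Figure D1:**
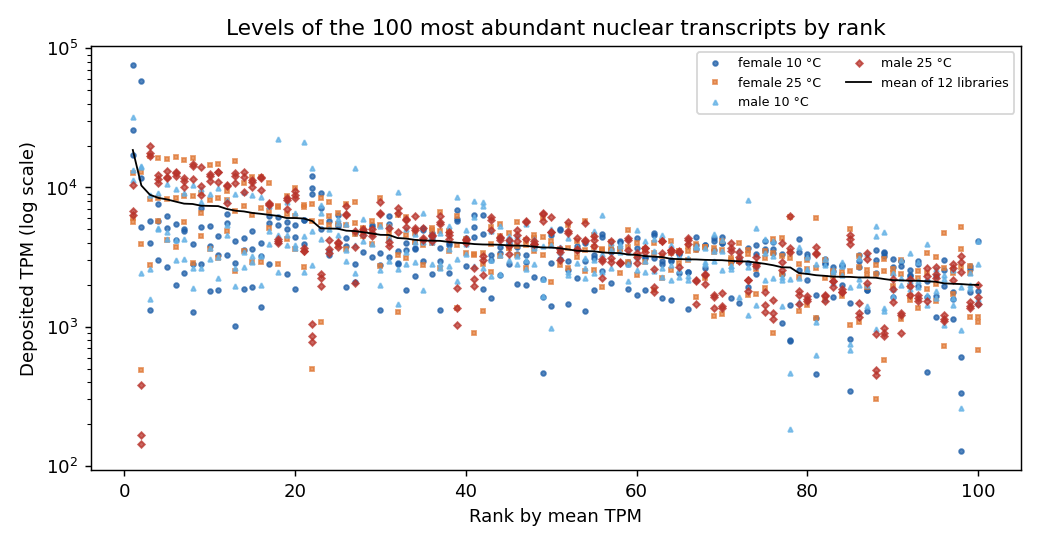
Deposited TPM (log scale) of each of the 100 transcripts in each of the 12 libraries, by rank of the mean (black line). Symbols and colours give sex and temperature, and the mean line falls from 18586 to 1995 TPM while single libraries of the second-ranked transcript reach from 143 to 58385 TPM.

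The choice of members changed little with the ranking. Ranking by median TPM kept 97 of them, ranking by mean RPKM 98 and ranking on the 25 °C libraries alone 92. Leaving out any single library kept between 97 and 99. A ranking by the share of gene reads, added after the data were seen, kept 83. Within single libraries, between 73 and 95 members stood among that library's own first 100 locus names. Of the members, 45 did so in all 12 libraries, 13 in 6 or fewer, and the fewest was 5.

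On average the members took a smaller share of the reads at 10 °C than at 25 °C in both sexes. They held 27.8%, 22.5% and 25.8% of gene reads in females at 10 °C replicates 1, 2 and 3, against 32.1%, 25.5% and 37.1% in females at 25 °C replicates 1, 2 and 4. In males they held 27.4%, 31.8% and 25.7% at 10 °C, against 34.0%, 35.6% and 33.7% at 25 °C. The male groups did not overlap, while in females the 25 °C replicate 2 lay within the 10 °C range. The means were 25.4 ± 2.68% in females at 10 °C and 31.6 ± 5.84% in females at 25 °C, and 28.3 ± 3.14% in males at 10 °C and 34.4 ± 1.03% in males at 25 °C (SD, n = 3 each). No test was made of these sums, since the members were chosen by level.

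On the TPM scale the shares were larger. Females held 39.4 ± 1.30% of TPM in the members at 10 °C and 43.6 ± 6.30% at 25 °C, and males 40.3 ± 4.74% at 10 °C and 46.7 ± 0.989% at 25 °C (SD, n = 3 each). The next 100 transcripts by rank took much less: 9.93 ± 1.40% of gene reads in females at 10 °C and 11.2 ± 0.936% in females at 25 °C, and 10.9 ± 0.124% in males at 10 °C and 10.1 ± 0.472% in males at 25 °C (SD, n = 3 each).

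**Figure D2:**
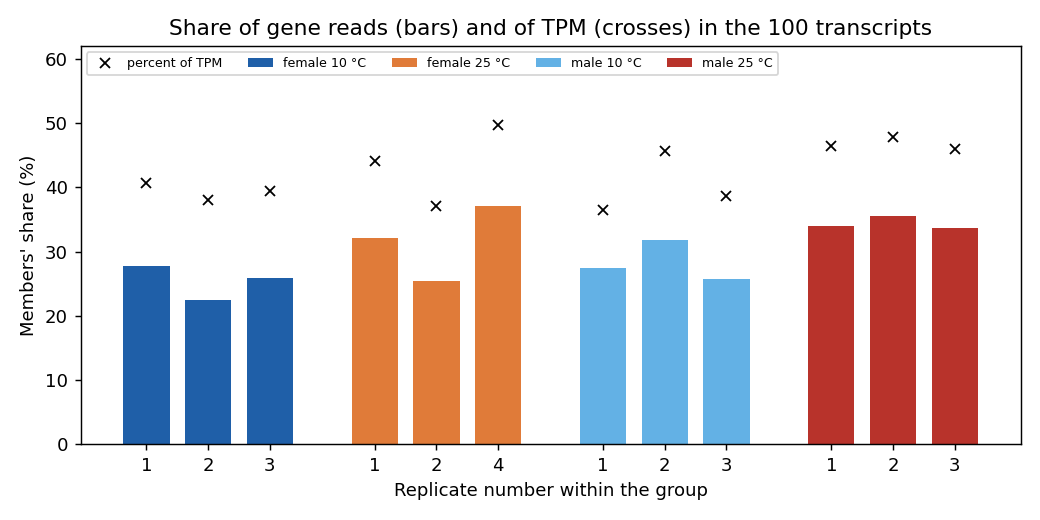
Percent of total gene reads (bars) and of TPM (crosses) in the 100 transcripts, for each library by its replicate number within sex and temperature. Bars range from 22.5% in female 10 °C replicate 2 to 37.1% in female 25 °C replicate 4, and the male 10 °C and male 25 °C bars do not overlap.

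The members were short. Their exons added up to a median of 717 bp, between 319 bp for LOC105382390 and 2749 bp for LOC105392941, and 80 of 100 were below 1000 bp. Over all locus names the median was 1456 bp and 30.0% were below 1000 bp, and over the next 100 transcripts the median was 771 bp. TPM divides by exon length, so a short exon length itself raises a transcript's rank and this difference is no test. In the ranking by share of gene reads, which does not divide by length, the median was 863.5 bp and 63 of 100 were below 1000 bp.

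Gene structure followed the same pattern of compact loci. Members had a median of 4 exons against 5 over all locus names, and 73 had between 3 and 6 exons against 36.1%. A single exon was found in 8 members, against 13.2% of all locus names. The next 100 transcripts were much alike, with a median of 4 exons, 70 with between 3 and 6 and 4 with a single exon. Reads in introns made up a median of 0.243% of a member's reads, against 6.20% over the tested locus names and 0.371% over the next 100 transcripts. For 79 members the share was below 1%, against 17.2% of the tested names. The members with the highest intron share were LOC105393634 at 10.98% and LOC105395468 at 5.58%. Summed over the members, the intron share was 1.96 ± 1.24% in females at 10 °C and 0.933 ± 0.489% in females at 25 °C, and 1.22 ± 0.437% in males at 10 °C and 0.616 ± 0.0583% in males at 25 °C (SD, n = 3 each). Over all genes the mean share was also higher at 10 °C in each sex, but there females at 25 °C were lowest. It was 6.39 ± 1.65% in females at 10 °C and 4.23 ± 0.577% in females at 25 °C. In males it was 4.96 ± 1.02% at 10 °C and 4.37 ± 0.208% at 25 °C (SD, n = 3 each).

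Most members were counted from uniquely mapped reads. For 83 members at least 99% of reads mapped uniquely, and 11 were below 90%, against 19.8% of all locus names with reads. Only 3 were below 50%: LOC105398643 at 0.135%, LOC105395468 at 29.4% and LOC105381010 at 38.1%. LOC105381010 (scaffold NW_011952050, 289314 to 292183) and LOC105395468 (NW_011952669, 11745 to 14315) have the same exon length of 858 bp in 3 exons. The next lowest were LOC105387069 at 54.3%, LOC105390177 at 54.4% and actin at 54.5%. LOC105390177 has a single exon of 1457 bp and actin a single exon of 1456 bp. The levels of these members are uncertain, since reads shared with near-identical copies can be counted at either locus. Summed over the members, between 91.8% and 97.02% of reads in a library were unique, against 93.1% to 95.5% over all genes.

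The reference gene table of assembly ilPluXylo3.1 listed 90 of the 100 members. Of these, 39 carried a curated protein record rather than a predicted one, which is 43.3%, against 17.7% of the matched names among the next 100 transcripts and 1.07% of all matched locus names. A symbol was given for 9 members. In the same table LOC105382202 is a long non-coding RNA gene.

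Both arylphorin-type storage protein genes with a symbol were members and neighbours. PxAry1 (LOC105388112, NW_011952208, 398647 to 401687, minus strand, exon length 2257 bp) and PxAry2 (LOC105388114, 406766 to 409981, plus strand, 2288 bp) lie beside LOC105388111 (391131 to 396129, 2465 bp), also a member. PxAry1 had 6171, 5418 and 4059 TPM in females at 10 °C, against 7419, 7198 and 2833 TPM in females at 25 °C. In males it had 22473, 2489 and 4549 TPM at 10 °C, against 4249, 4126 and 3992 TPM at 25 °C. Male 10 °C replicate 1 stood far above every other library, and the groups otherwise overlapped on TPM. The same library was highest for PxAry2, with 21270 TPM against 2455 and 4514 TPM in the other male 10 °C libraries, and for LOC105388111, with 8180 TPM against 1222 and 2670 TPM. With the TMM scaling used in the tests below, all 3 genes were lower in every 10 °C female library than in every 25 °C one. For PxAry1 the log2 change was -0.98 ± 0.65 in females (edgeR adjusted p = 0.408) and 0.21 ± 0.65 in males (edgeR adjusted p = 0.830).

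The trypsin-type serine protease gene Tryp_SPc1 (LOC105383570, a digestive enzyme by its name) also peaked in male 10 °C replicate 1. It had 2820, 2103 and 4692 TPM in females at 10 °C, against 4626, 7864 and 5526 TPM in females at 25 °C. In males it had 13729, 3829 and 2433 TPM at 10 °C, against 2062, 3744 and 4894 TPM at 25 °C. Averaged over the sexes its log2 change was -0.97 ± 0.47 (edgeR adjusted p = 0.129). In females it was -1.85 ± 0.68 (edgeR adjusted p = 0.249), with no overlap of the temperatures on the TMM scale. In males it was -0.087 ± 0.66 (edgeR adjusted p = 0.931).

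Cold was compared with 25 °C in an edgeR quasi-likelihood fit of all 15027 features that passed the expression filter, with TMM scaling of gene read counts and Benjamini-Hochberg adjustment over all of them. All 100 members were tested. The rule used the mean over the 12 libraries and not these contrasts, although a mean is raised by any group or library in which a transcript is high. Averaged over both sexes, 39 members fell and 1 rose at 10 °C at an adjusted p below 0.05. Over all tested features 23% were called, with 9.31% lower and 13.7% higher. The members' median log2 change was -1.18, with 90 of 100 negative, and the median over all tested features was 0.23. Among the next 100 transcripts by rank, 34 fell and 0 rose, with a median of -0.75. That 39 members fell is thus more than the background share and close to the share in the next 100.

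The size of this shift depended on the scaling. TMM factors were between 0.94 and 1.65 in the 10 °C libraries and between 0.59 and 1.17 in the 25 °C libraries. The lowest factor belonged to female 25 °C replicate 4, where the members took the largest share of reads, and the highest to female 10 °C replicate 2, where they took the smallest. With library totals in place of TMM, an alternative added after the data were seen, 26 members fell and 5 rose, 31 in all, against 37.6% called over all tested features (3.81% lower and 33.8% higher). The members' median was then -0.52 with 67 negative, and the median over all tested features 0.88. Every one of the 39 members that fell with TMM stayed negative, and 26 of them were called again. The smallest of these falls with TMM was -1.09. The median shift between the scalings was 0.66, so the kept signs are no test. On TPM, 41 members had a higher mean at 10 °C, with a median log2 ratio of -0.24, against 1.10 over all tested features, of which 82.0% were positive.

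**Figure D3:**
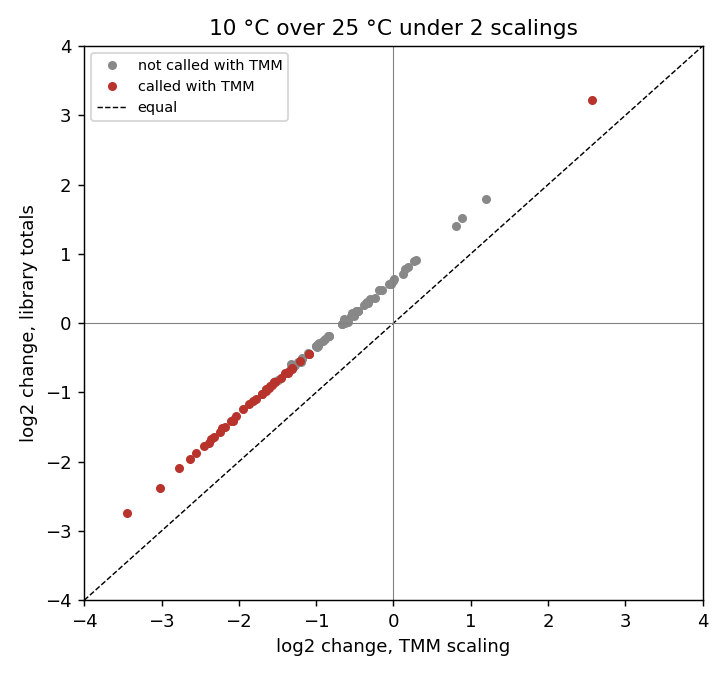
Log2 change at 10 °C over 25 °C, averaged over both sexes, for each of the 100 transcripts with TMM scaling (horizontal axis) and with library totals (vertical axis); red points were called with TMM. All points lie above the dashed line of equality by about the same amount (median 0.66), so points near 0 on the horizontal axis change sign with the scaling.

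The count of calls also rested on single libraries. Leaving out replicate 2 or 3 of the 10 °C females, replicate 1 or 3 of the 10 °C males or replicate 1 of the 25 °C females left 1 call, with 1.01% to 1.71% of all features called. Leaving out replicate 1 or 2 of the 25 °C males left 0, with 0.622% and 0.357% of all features. Without replicate 3 of the same group 2 were left, below the 7.65% of all features, and without replicate 4 of the 25 °C females 4, below their 11.2%. Leaving out replicate 2 of the 10 °C males gave 60 and replicate 2 of the 25 °C females 63, while the share over all features was 34.1% and 37.7% in these fits. Without replicate 1 of the 10 °C females the count stayed at 40, against 17.1% of all features. Setting aside both 10 °C libraries numbered 3, which went against their sex labels, left 0, with 0.0521% of all features called. In that fit, which kept replicate 2 of the 10 °C females, 46 members had an unadjusted p below 0.05, against 29.9% of all tested features. All 14 members named here that were called lost their call in that fit, with edgeR adjusted p between 0.0947 and 0.156, and kept their direction. In the fits without 1 library the median log2 change of the members stayed between -1.36 and -0.87. Between 45 and 71 members had an unadjusted p below 0.05 in these fits, against 34.8% to 50.3% of all tested features. With all libraries 67 did, against 44% of all tested features. DESeq2 called 65 members and 39.5% of all tested features, and voom 76 and 50.8%.

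The largest fall was that of LOC105392199 (NW_011952385, 68547 to 70882, exon length 894 bp). It had 334, 128 and 603 TPM in females at 10 °C, against 3635, 2686 and 5172 TPM in females at 25 °C. In males it had 1937, 954 and 262 TPM at 10 °C, against 2462, 2906 and 3196 TPM at 25 °C. All 6 libraries at 10 °C lay below all 6 at 25 °C, on the TPM and on the TMM scale, and its log2 change was -3.44 ± 0.64 (edgeR adjusted p = 0.0195). On library totals it was -2.73 ± 0.52 (edgeR adjusted p = 0.0195). Its call was kept in 10 of the 12 fits without 1 library, with log2 changes between -3.71 and -2.99, and was lost without replicate 1 or 2 of the 25 °C males. Among the members named here that were called, each other call was kept in fewer of these fits, 3 to 5 of 12: 5 for LOC105393634, 4 for LOC105382202 and 3 for each of the rest.

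LOC105382202, the long non-coding RNA gene (NW_011952069, 8715 to 9783, a single exon), also fell. It had 1437, 799 and 795 TPM in females at 10 °C, against 3422, 3122 and 6132 TPM in females at 25 °C, and 184, 2194 and 468 TPM in males at 10 °C, against 3423, 3686 and 6285 TPM in males at 25 °C. The 10 °C and 25 °C libraries did not overlap on TPM. Its log2 change was -3.02 ± 0.74 (edgeR adjusted p = 0.0282). LOC105392199 and LOC105382202 were 2 members lower in every 10 °C library on TPM and 0 members were higher in every one, against 0.579% and 4.45% of all tested features.

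The third largest fall was that of LOC105398550, with an exon length of 353 bp. It averaged 880 ± 567 TPM in females at 10 °C and 2869 ± 2029 TPM in females at 25 °C, and 1116 ± 695 TPM in males at 10 °C and 4248 ± 337 TPM in males at 25 °C (SD, n = 3 each). Its log2 change was -2.78 ± 0.70 (edgeR adjusted p = 0.0286), although the lowest female library at 25 °C, with 1031 TPM, lay below the highest at 10 °C, with 1475 TPM.

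LOC105393634 (NW_011952478, 31478 to 33178, exon length 1164 bp) was the 1 member that rose, and the most variable of all. It had 5160, 58385 and 11665 TPM in females at 10 °C, against 3915, 12949 and 491 TPM in females at 25 °C. In males it had 13985, 2433 and 14263 TPM at 10 °C, against 143, 166 and 382 TPM at 25 °C. The male groups did not overlap, the female groups did, and the highest library was 409 times the lowest. The log2 change over both sexes was 2.57 ± 0.62 (edgeR adjusted p = 0.0276), and 3.21 ± 0.74 on library totals. It was 1.199 ± 0.84 in females (edgeR adjusted p = 0.425) and 3.94 ± 0.93 in males (edgeR adjusted p = 0.0532), and the difference of these responses, female minus male, was -2.74 ± 1.19 (edgeR adjusted p = 0.549).

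LOC105398139 (NW_011952029, 1773147 to 1775273, exon length 358 bp) stood first among the ranked locus names in 4 libraries, all of them at 10 °C. It had 17038, 75545 and 26047 TPM in females at 10 °C, against 5985, 12701 and 5677 TPM in females at 25 °C. In males it had 13396, 31876 and 11227 TPM at 10 °C, against 6827, 6322 and 10394 TPM at 25 °C. On TPM the groups of each sex did not overlap. With TMM the log2 change over both sexes was 0.89 ± 0.43 (edgeR adjusted p = 0.134), and on library totals 1.52 ± 0.41 (edgeR adjusted p = 0.0227).

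For actin (LOC105387683, the gene with that symbol, whose product is a cytoskeletal protein also abundant in muscle) the values stood in the same direction without passing the test. It had 8978, 12162 and 9907 TPM in females at 10 °C, against 5748, 7572 and 497 TPM in females at 25 °C, and 4848, 2776 and 13745 TPM in males at 10 °C, against 859, 780 and 1049 TPM in males at 25 °C. Within each sex the temperatures did not overlap. Its log2 change was 1.19 ± 0.44 (edgeR adjusted p = 0.0648), and on library totals 1.80 ± 0.51 (edgeR adjusted p = 0.0248).

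**Figure D4:**
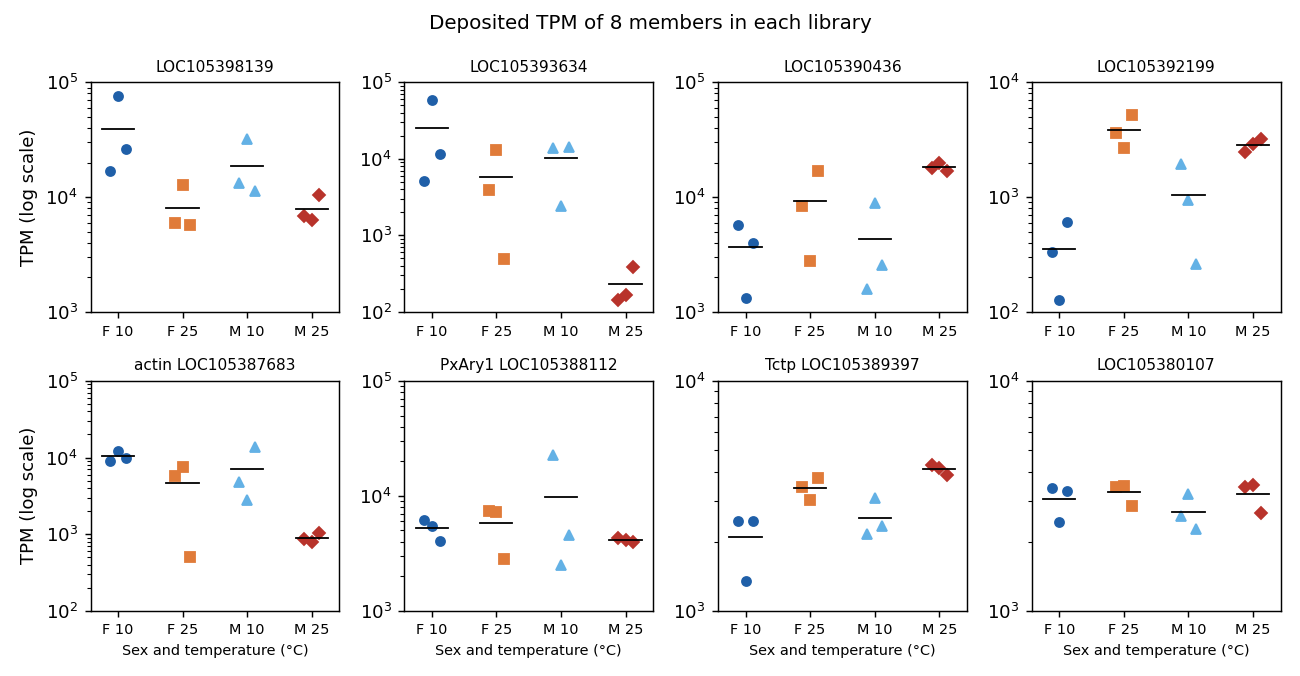
Deposited TPM (log scale) of 8 members in each library, in females at 10 °C (F 10), females at 25 °C (F 25), males at 10 °C (M 10) and males at 25 °C (M 25), with black bars for means of 3 libraries. LOC105392199 and LOC105398139 show opposite temperature patterns on TPM, and LOC105380107 stays between 2274 and 3519 TPM in all 12 libraries.

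Of the 8 transcripts at ranks 3 to 10, 7 had their lowest TPM in female 10 °C replicate 2, and LOC105381010 had it in male 10 °C replicate 1. The highest library was female 25 °C replicate 4 for 6 of them and male 25 °C replicate 2 for 2. LOC105390436, at rank 3, had 5729, 1312 and 3973 TPM in females at 10 °C, against 8301, 2784 and 16793 TPM in females at 25 °C, and 1580, 8841 and 2580 TPM in males at 10 °C, against 17795, 19750 and 16918 TPM in males at 25 °C. The male groups did not overlap, while female 25 °C replicate 2 lay within the female 10 °C range. LOC105390436 fell by 2.64 on the log2 scale (SE 0.78, edgeR adjusted p = 0.0377) and stood first among the ranked locus names in all 3 male 25 °C libraries and in female 25 °C replicate 4.

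Of the other 7 members at ranks 4 to 10, 6 fell. LOC105380047 had a log2 change of -1.87 ± 0.55, LOC105387239 -1.95 ± 0.61, LOC105380398 -2.21 ± 0.65, LOC105398643 -2.11 ± 0.59, LOC105397948 -2.55 ± 0.75 and LOC105396505 -2.18 ± 0.64 (edgeR adjusted p from 0.0337 to 0.0427). LOC105381010 had -1.51 ± 0.55 (edgeR adjusted p = 0.0624). Over the first 20 ranks 15 members fell and 1 rose (median log2 change -1.99). At ranks 21 to 50, 10 fell (median -1.09), and at ranks 51 to 100, 14 fell (median -0.75). Median exon lengths of these rank classes were 535, 679 and 796.5 bp.

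The libraries at the ends were few. Of the 39 members that fell, 37 had their lowest TPM in female 10 °C replicate 2, which also had the highest share of intron reads over all genes, 8.25%, and the part of that share in these values was not tested. Of the same 39, 22 had their highest in female 25 °C replicate 4. Over all members the corresponding numbers were 56 and 27. By group mean TPM, 47 members were highest in males at 25 °C, with a median exon length of 575 bp, and 35 of these fell. Another 25 were highest in females at 10 °C, with a median of 881 bp, and 0 of these fell. Females at 25 °C and males at 10 °C were highest for 14 members each, of which 4 and 0 fell. The same libraries gave the highest group and the falls, so these counts are largely fixed by the sorting and are no test.

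Of the 39 falls, 35 were in the shortest length class. The 40 called members had a median exon length of 550 bp, and the 60 others 802 bp. Among features of at most 1043 bp, the shortest of 4 equal classes of tested features, 35 of 80 members fell and their median log2 change was -1.29, while the other features of that class had a median of -0.18 with 15.9% lower. In the second class, from 1044 to 1642 bp, 4 of 12 members fell and 1 rose, with a median of -0.45 against 0.07 for the other features, of which 10.4% fell. In the third class the 7 members had a median of -0.48 against 0.31 for the other features, and 0 were called, while 6.72% of the others fell. On library totals the medians of the members in these 3 classes were -0.61, 0.19 and 0.18. Exon length and level moved together among the members, and their parts in the change were not tested.

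**Figure D5:**
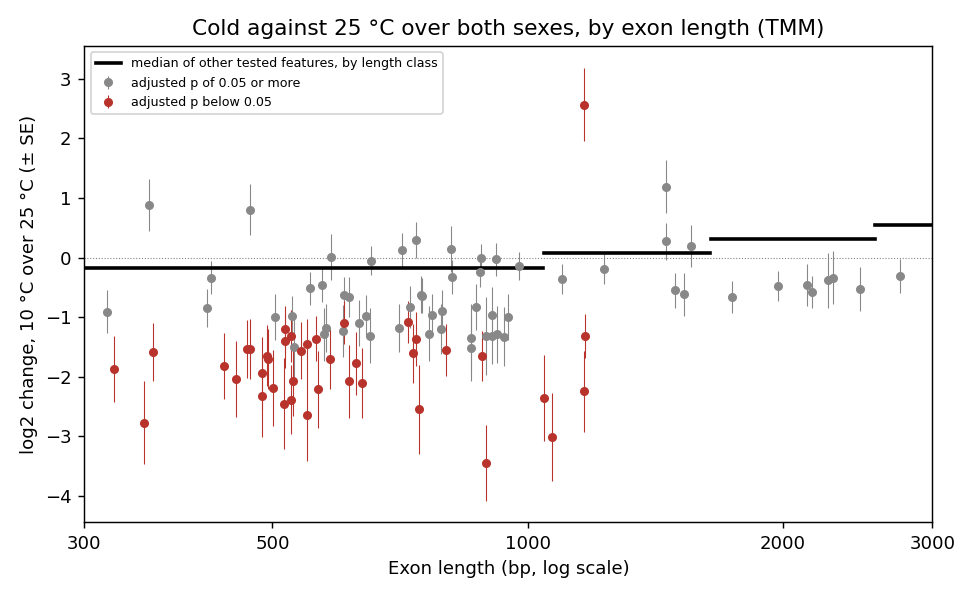
Log2 change at 10 °C over 25 °C, averaged over both sexes with TMM scaling, against exon length (log scale) for each of the 100 transcripts, with bars of 1 SE; red points were called at an adjusted p below 0.05. Black lines are the medians of the other tested features in 4 length classes, from -0.18 in the shortest to 0.55 in the longest, and most red points lie below 1043 bp. The median of all tested features was 0.23 with TMM and 0.88 with library totals.

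Among the members with a symbol, 2 fell. Tctp (LOC105389397, a growth-related protein that is abundant in dividing and growing cells) had 2451, 1349 and 2464 TPM in females at 10 °C, against 3471, 3028 and 3795 TPM in females at 25 °C. In males it had 2163, 3107 and 2329 TPM at 10 °C, against 4322, 4169 and 3901 TPM at 25 °C. The temperatures did not overlap within either sex, and its log2 change was -1.65 ± 0.41 (edgeR adjusted p = 0.0287; -0.99 ± 0.27 on library totals). The gene with the symbol ubiquitin (LOC105397135), the tag for protein breakdown, had 2969, 1459 and 2541 TPM in females at 10 °C, against 3674, 2641 and 5401 TPM in females at 25 °C, and 2486, 4312 and 2342 TPM in males at 10 °C, against 5633, 4711 and 4884 TPM in males at 25 °C. The male groups did not overlap, the female groups did, and its log2 change was -1.70 ± 0.50 (edgeR adjusted p = 0.038).

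The other symbols gave values that did not pass. RpS13 (LOC105388947, a protein of the small ribosomal subunit) had a log2 change of -1.29 ± 0.45 (edgeR adjusted p = 0.0541). The constitutive chaperone gene hsc70 (LOC105383306) had -0.59 ± 0.27, PxAry1 -0.38 ± 0.46, PxAry2 -0.34 ± 0.44 and PxANTI1 (LOC105398808) -0.48 ± 0.25. On library totals hsc70 was at 0.016, PxAry1 at 0.26, PxAry2 at 0.31 and PxANTI1 at 0.18, so their signs rest on the scaling. PxANTI1 had 2798, 2853 and 3055 TPM in females at 10 °C, against 2242, 3032 and 1542 TPM in females at 25 °C, and these groups overlapped. Of 17 symbols listed by role, chosen with earlier results known, 16 were found in the tables and tested, 7 were members and 3 were set aside by the rule. Of the 16, 4 fell and 0 rose, where 9.31% of all tested features fell: Tctp and 1 gene set aside by the rule among 3 in ribosome and translation, 1 of 4 chaperones, which was no member, and ubiquitin. RpS13, which did not pass, was not among the listed symbols. Among 3 storage proteins, 2 digestive enzymes and 3 genes of cytoskeleton and glycolysis, 0 were called.

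A few members were steady. The highest library was less than 2 times the lowest for 13 members and at least 10 times the lowest for 12, with a median of 3.58 on TPM. LOC105380107 was the steadiest at 1.55 times, with group means of 3051 ± 530 TPM in females at 10 °C and 3273 ± 371 TPM in females at 25 °C, and 2684 ± 476 TPM in males at 10 °C and 3216 ± 480 TPM in males at 25 °C (SD, n = 3 each). It was followed by LOC105388644 at 1.64 and LOC105397261 at 1.68 times. At the other end LOC105393634 was followed by LOC105392199 at 40.4 and LOC105382202 at 34.2 times. With TMM, LOC105380107 fell all the same (log2 change -1.09 ± 0.35, edgeR adjusted p = 0.0458), and on library totals it had -0.45 ± 0.23 (edgeR adjusted p = 0.126).

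Within each sex, 0 members passed the test. In females at 10 °C against females at 25 °C 0.0399% of all tested features were called, and 55 members had an unadjusted edgeR p below 0.05, against 17.2% of all tested features. DESeq2 called 12 members and 4.94% of all features, and voom 31 members and 10.9%. The median log2 change of the members was -1.36, and LOC105392199 had the largest negative value, -4.55 ± 0.95 (edgeR adjusted p = 0.132). On TPM 8 members were lower in every female library at 10 °C and 6 higher, against 2.68% and 23.5% of all tested features. Members lower in every one on TPM include LOC105392199, LOC105382202, Tctp and LOC105398643, and those higher include LOC105398139, actin and LOC105380502. On the TMM scale 13 members were lower and 1 higher in every female library at 10 °C, against 9.14% and 11.6% of all tested features.

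In males at 10 °C against males at 25 °C 0.02% of all tested features were called, and 18 members had an unadjusted edgeR p below 0.05, against 32% of all tested features. DESeq2 called 10 members and 23.6% of all features, and voom 65 members and 46.9%. Without replicate 2 of the 10 °C males edgeR called 20, close to the 20.8% of all features in that fit. The median log2 change of the members was -1.03, between -2.80 for LOC105382202 and 3.94 for LOC105393634, followed at the upper end by actin at 1.87 ± 0.64 (edgeR adjusted p = 0.0845). On TPM 30 members were lower in every male library at 10 °C and 21 higher, against 5.4% and 48.6% of all tested features. On the TMM scale 65 were lower and 3 higher, against 20.1% and 26% of all tested features. The difference between the responses of the sexes, female minus male, was called for 0 members and for 0% of all tested features, and 1 member, LOC105393634, had an unadjusted edgeR p below 0.05, against 8.99% of all tested features. DESeq2 called 0 members and 0.0266% of all features for this difference, and voom 1 member and 2.46%.

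Between the sexes 0 members were called at either temperature, and 0% of all tested features. At 25 °C 2 members had an unadjusted edgeR p below 0.05 in females against males, as did 22.4% of all tested features. DESeq2 called 2 members and 13.6% of all features there, and voom 12 members and 31%. LOC105393634 was higher in females in every library, with a log2 difference of 3.57 ± 0.92 (edgeR adjusted p = 0.0842), and actin had 1.69 ± 0.63 (edgeR adjusted p = 0.146) with overlapping groups. On TPM 4 members were higher and 8 lower in every female library than in every male library at 25 °C, against 6.57% and 10.7% of all tested features. Among the lower, LOC105380502 averaged 977 ± 265 TPM in females and 1690 ± 271 TPM in males (SD, n = 3 each; log2 difference -1.15 ± 0.55, edgeR adjusted p = 0.241). At 10 °C 1 member had an unadjusted edgeR p below 0.05, LOC105392199, with -1.86 ± 0.85 in libraries labelled female against male and an adjusted p near 1, while 0.799% of all tested features had such a p. DESeq2 and voom called 0 members at 10 °C. Without both 10 °C libraries numbered 3, edgeR called 0 members in each sex, for the difference of responses and between the sexes. Over all tested features 3.58% were called between the sexes at 25 °C and 0.00651% in males, and 0% in the other comparisons. An unadjusted p below 0.05 was found for 17 members in females (10.8% of all tested features), 2 in males (17.6%) and 2 for the difference (4.09%). Between the sexes it was found for 3 at 10 °C (5.85%) and 3 at 25 °C (19.4%).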

How the data were processed

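Per the labels' protocols, poly(A) RNA of 8 pooled larvae per library was made into random-primed libraries and sequenced. For the aligner, counter, genome build and strand setting, nothing is given in the sources used. Overlapping and antisense loci are therefore uncertain. Per the file headers, the authors deposited whole-number read counts per gene (total, unique, exon and intron), TPM, RPKM and, as a fraction, the unique share of exon reads. Shares and tests used total gene counts, which include reads shared between copies. The members, lists and tests were chosen with earlier results of these data known.

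Counts were fitted with edgeR 4.0.16 (TMM, minimum count 10 and minimum total 15, robust quasi-likelihood, 4 group means over 12 libraries, Benjamini-Hochberg over 15027 features) in R 4.3.3. The SE is approximate, taken as the size of the log2 change over the root of its F statistic. The p-values set the group differences against the spread between pools. Alternatives used DESeq2 1.42.0 and limma 3.58.1. The fits were tested on simulated data. Named members were the first 10, those with a symbol, the largest changes, the extremes of length, variability and unique share, the members at the limit and neighbouring members; any other was chosen after its values were seen. Symbols came from the reference table of ilPluXylo3.1 and positions from the deposited tables. In 66 pairs of libraries, chi-square over its degrees of freedom was at least 32.7, so none repeated another within counting error. Same-numbered libraries of different groups showed no sign of deviating together: 2 of 15 pairs had a correlation above 0.1, against 14 of 39 differently numbered pairs. With 3 libraries a group this check cannot exclude a pairing by number. Protein and promoter sequences were not analysed here.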

Additional observations from a re-analysis of the deposited data

How the results depend on the processing

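For cold averaged over both sexes, 40 members and 23% of all tested features were called. The count was 45 with DESeq2 size factors (24.8% of all features), 35 without a filter (17.7%) and 39 on unique reads (23.9%). It was 44 on exon reads (26.2%) and 31 with library totals, below the 37.6% of all features. The DESeq2 test gave 65 (39.5%) and voom 76 (50.8%). Setting aside both 10 °C libraries numbered 3 gave 0 (0.0521% of all features). With library totals, chosen after seeing the data, that also gave 0 (0.0847%). Leaving out replicate 2 of the 10 °C females as well, also chosen after seeing the data, left 1 library in that group. The members' median log2 change was then -0.70, against 0.16 over all tested features. Without 1 library the count of called members ranged from 0 to 63. With the replicate number as a block it was 0 (0.133% of all features), and 1 in males (3.6%), although the numbers are not known to pair samples. In females DESeq2 called 12 (4.94% of all features) and voom 31 (10.9%). In males DESeq2 called 10 (23.6% of all features), voom 65 (46.9%) and the male libraries alone 2 (8.04%). Without 1 library the count in males was 0 to 20 (20 without male 10 °C replicate 2, with 20.8% of all features). Voom called 1 for the difference of responses (2.46% of all features). Between the sexes at 25 °C DESeq2 called 2 (13.6% of all features) and voom 12 (31%). The fits without 1 library called 0 to 2 there (2 without female 25 °C replicate 4, with 11.3% of all features). The cause of these moves was not tested.

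The share in males at 25 °C was 35.8% on exon reads. With library totals the log2 change turned positive for PxAry1 (0.26), PxAry2 (0.31), PxANTI1 (0.18), hsc70 (0.016), LOC105387069 (0.37), LOC105392941 (0.35), LOC105388192 (0.097) and LOC105388111 (0.14). With library totals and without the pair of number 3 it was 0.50 for PxAry1, 0.55 for PxAry2, 0.085 for PxANTI1, 0.24 for LOC105387069, 0.18 for LOC105392941, 0.0078 for LOC105388192 and 0.35 for LOC105388111. Without the 3 doubted libraries it was 0.23 for PxAry1, 0.24 for PxAry2 and 0.010 for LOC105387069. LOC105380502 ranged from -0.15 to 0.34 when 1 library was left out, being negative without replicate 3 of the 10 °C females, and LOC105390177 had -0.0096 on unique reads. The smallest fall called among members was -1.09 on the log2 scale, and with 3 pools a group smaller changes may have been missed.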
